A study of Mus musculus with 4 samples.

Results

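Interferon-stimulated genes, the genes that cells switch on when interferon reaches them, were examined in the sympathetic ganglia of mice. The members were 40 genes chosen by name and matched by symbol to the Entrez identifiers of the data, out of 17667 genes listed in at least 1 library. All 40 were listed in all 4 libraries, as were 15275 genes in total. They fell into 32 genes best known as targets of type I interferon (*Mx1*, *Mx2*, *Isg15*, *Ifit1*, *Ifit2*, *Ifit3*, *Ifi44*, *Ifi27*, *Ifi35*, *Irf7*, *Irf9*, *Stat2*, *Oas1a*, *Oas2*, *Oas3*, *Oasl1*, *Oasl2*, *Rsad2*, *Usp18*, *Bst2*, *Ddx58*, *Ifih1*, *Dhx58*, *Xaf1*, *Rtp4*, *Cmpk2*, *Zbp1*, *Trim30a*, *Lgals3bp*, *Eif2ak2*, *Sp100*, *Parp14*) and 8 best known as targets of interferon-gamma (*Irf1*, *Gbp2*, *Gbp3*, *Gbp7*, *Igtp*, *Irgm1*, *Iigp1*, *Psmb10*). Many of them respond to both, so the classes overlap in biology.

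The ganglia came from thoracic levels T1–T4 of C57BL/6 mice aged 12 weeks, and all groups had spent 1 day at 5 °C. The 4 libraries were WT_1 and WT_2 (wild type, the only genotype with more than 1 library), TRKC+/- (haploinsufficient for TRKC, the receptor of neurotrophin-3) and AdNTF3-Tg (overexpressing neurotrophin-3 from the adiponectin promoter, which is active in adipocytes and not in neurons). Each library was made from ganglia pooled over several mice, so it carries no measure of the spread between animals. Each mutant line had a WT control of its own in the study, but the sample labels do not say which WT library belongs to which mutant. Each mutant library was therefore set against both. A mutant library was counted as higher or lower for a gene when its level in FPKM (reads scaled to transcript length and to the depth of the library), after adding 0.1, differed by at least 0.5 on the log2 scale in the same direction from each WT library. With 1 library per mutant these differences had no replicate check. The intervals given beside them are exact Clopper-Pearson 95% intervals of the ratio of reads, which cover counting error only and compare libraries, not genotypes.

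Type I interferons bind the receptor made of IFNAR1 and IFNAR2, and interferon-gamma binds that made of IFNGR1 and IFNGR2. The receptors activate JAK kinases, which phosphorylate STAT proteins. A complex that contains STAT2 and IRF9 binds the interferon-stimulated response element (ISRE), while interferon-gamma acts through the gamma-activated site (GAS). Most cells express a low tonic level of these genes without infection, and the products sense viral RNA, block viral replication or feed back on the pathway itself.

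The promoters show what the members share in sequence. RefSeq promoter windows of 300 bases (250 before and 50 after the start of transcription, GRCm38.p6) were found for 30 of the 40 members. The ISRE core, searched as GAAA, any 2 bases and GAAA on both strands, was present in 17 of these 30 (56.7%), against 3.99% of the 27025 genes in the table, 3.77% of the genes listed in all 4 libraries, and 3.44% of all 32851 promoters. It was in 12 of 23 type I promoters (52.2%) and 5 of 7 interferon-gamma promoters (71.4%). The GAS, searched as TTC, any 3 bases and GAA, which reads the same on both strands and can overlap an ISRE core, was in 8 of 30 members (26.7%), against 9.55% of all genes and 8.30% of all promoters. It was in 5 of 23 type I promoters (21.7%) and 3 of 7 interferon-gamma promoters (42.9%). The windows below are those of genes described in the results, with 20 bases before the match and up to 20 after it, ending at the start of transcription at the latest, on the strand of the gene. Capitals mark the ISRE core, with overlapping matches merged, and a match is a run of letters, not evidence of binding.
Isg15: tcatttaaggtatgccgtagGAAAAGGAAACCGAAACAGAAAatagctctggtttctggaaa
Ifit3: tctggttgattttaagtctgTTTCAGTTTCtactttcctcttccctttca
Bst2: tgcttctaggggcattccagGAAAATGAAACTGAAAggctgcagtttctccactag
Oas1a: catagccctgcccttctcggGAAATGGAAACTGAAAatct
Rsad2: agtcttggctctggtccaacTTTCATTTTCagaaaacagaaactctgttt
Gbp3: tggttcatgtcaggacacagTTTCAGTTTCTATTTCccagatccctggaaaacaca
Igtp: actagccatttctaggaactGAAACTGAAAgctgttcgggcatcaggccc
Irgm1: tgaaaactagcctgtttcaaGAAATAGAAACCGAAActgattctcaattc

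On GRCm38.p6 the window of *Isg15* is chr4:156200855-156200916 (minus strand), that of *Ifit3* is chr19:34583387-34583436 (plus), and that of *Bst2* is chr8:71537567-71537622 (minus). Those of *Oas1a* and *Rsad2* are chr5:120907526-120907565 and chr12:26456543-26456592 (both minus). In the interferon-gamma class, *Gbp3* has chr3:142559979-142560034 (plus), *Igtp* has chr11:58199502-58199551 (plus) and *Irgm1* has chr11:48871421-48871470 (minus). The capitals end 4 bases before the start of transcription in *Oas1a*, 14 in *Irgm1*, 24 in *Igtp*, 29 in *Gbp3*, 56 in *Isg15*, 110 in *Rsad2*, 112 in *Ifit3* and 114 in *Bst2*. *Ifit3* has a further stretch of matches, of which 1 is shown. *Isg15*, *Bst2*, *Oas1a*, *Gbp3* and *Irgm1* hold overlapping cores in a longer run.

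The depth was alike in the 4 libraries, at 8665955 to 8894985 reads on genes, and between 16277 and 16587 genes were listed in each. *Ntrk3*, which encodes TRKC, had 2.45 FPKM in WT_1, 2.72 in TRKC+/-, 2.52 in WT_2 and 2.32 in AdNTF3-Tg. It was not lower in the TRKC+/- library, which is therefore called the library labelled TRKC+/-, and any direction given for it rests on the label. *Ntf3*, which encodes neurotrophin-3, was listed only in that library, with 2 reads, and checks nothing in ganglia of a transgene driven in adipocytes. Among markers of ganglion neurons, 9 of 9 were listed in all libraries, and their summed level was between 9235 and 9897 FPKM. The WT libraries stood apart from each other in skeletal muscle genes, whose summed level was 88.2 FPKM in WT_1, 39.6 in the library labelled TRKC+/-, 3.02 in WT_2 and 31.4 in AdNTF3-Tg.

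The members were expressed at a wide range of levels in all genotypes. *Ifi27*, which encodes a membrane protein of mitochondria and the nuclear envelope, was the most abundant, with 246 FPKM in WT_1, 237 in the library labelled TRKC+/-, 250 in WT_2 and 212 in AdNTF3-Tg. *Lgals3bp*, a secreted glycoprotein that binds galectin-3, followed with 81.6, 87.4, 86.9 and 83.0 FPKM, listed in that sequence of libraries, as are all later series of values. *Psmb10* (an immunoproteasome subunit), *Bst2* and *Ifi35* averaged 40.8, 40.8 and 37.5 FPKM, which do not differ beyond the spread of each over the libraries. At the other end, *Mx2*, *Oas2*, *Oas3* and *Ifi44* averaged below 1 FPKM, with 6 to 40 reads per library. The median over genes of the mean level was 5.96 FPKM in the type I class and 9.18 in the interferon-gamma class.

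The spread of levels between libraries differed from member to member. The ratio of the highest to the lowest FPKM was between 1.07 (*Lgals3bp*) and 3.31 (*Mx1*), with a median of 1.44. Reads varied over the 4 libraries beyond counting error (chi-square with 3 degrees of freedom above its 95% quantile) in 19 of 40 members (47.5%), against 35.9% of all genes. These were 14 type I genes and 5 interferon-gamma genes, led by *Ifit3*, *Ifi27*, *Isg15* and *Mx1*. Across all members, reads amounted to 1207 CPM (counts scaled to library size) in WT_1 (95% counting interval 1184 to 1231), 1304 in the library labelled TRKC+/- (1281 to 1328), 1303 in WT_2 (1280 to 1327) and 1120 in AdNTF3-Tg (1098 to 1142). *Ifi27* gave more reads than any other member, and without it the values were 967, 1075, 1062 and 917 CPM. The AdNTF3-Tg library was thus below both WT libraries in the summed reads of the members. In whole ganglia, fewer cells of a type and less RNA per cell cannot be told apart. The library labelled TRKC+/- lay above WT_1 and within counting error of WT_2.

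**Figure D1:**
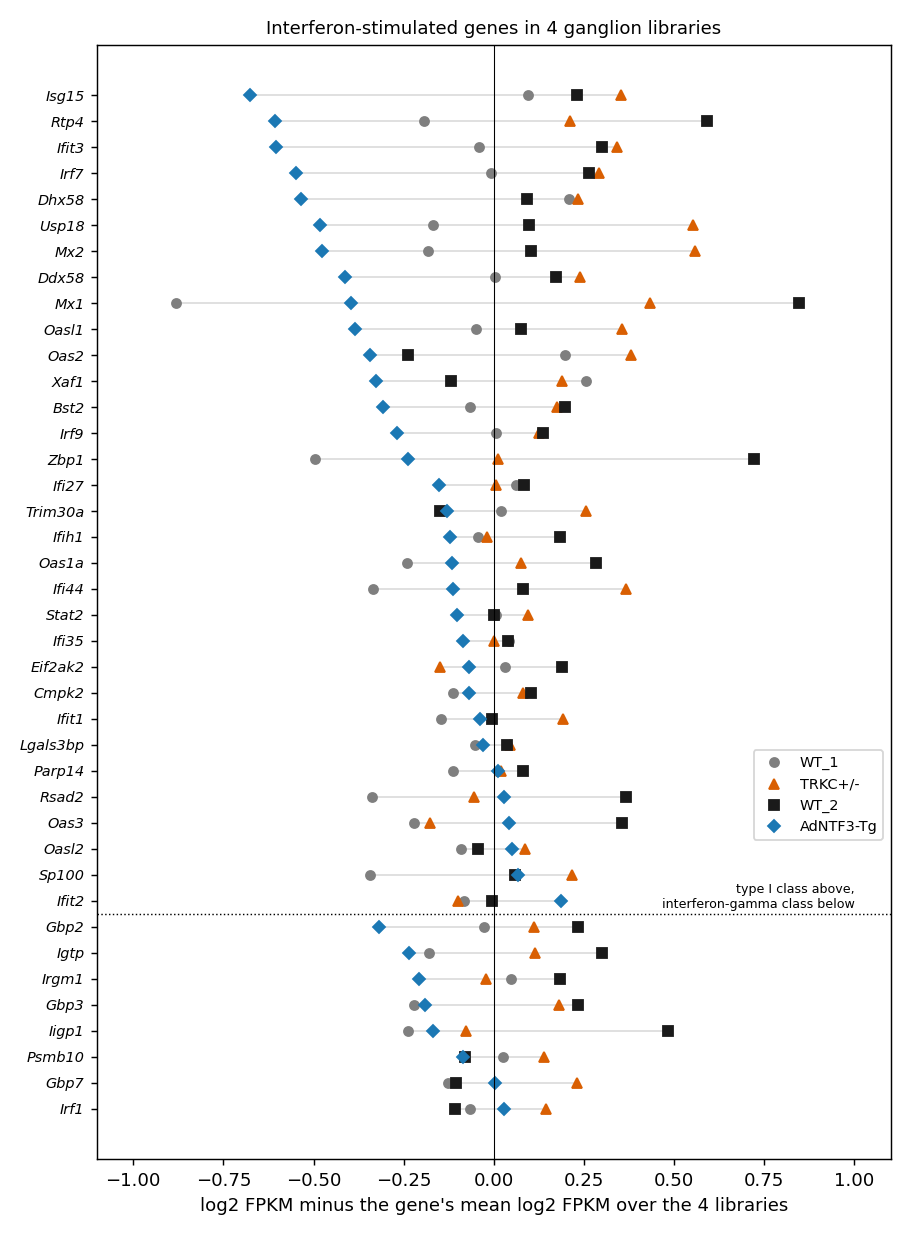
Level of each of the 40 members in the 4 libraries, as log2 FPKM minus the mean log2 FPKM of the gene over the libraries (x axis). Each point is 1 library, with the type I class above the dotted line and the interferon-gamma class below it. AdNTF3-Tg is the lowest point in 21 genes and the highest in 1, and WT_1 and WT_2 lie on opposite sides of the other libraries for *Mx1* and *Zbp1*.

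AdNTF3-Tg was lower than both WT libraries in 4 members, *Isg15*, *Ifit3*, *Irf7* and *Dhx58*, all of the type I class. This was 10% of the 40 members, against 3.58% of all 15275 genes. No member was higher than both, against 2.12% of all genes. *Isg15*, which encodes a small ubiquitin-like protein that is joined to other proteins during the antiviral response, had 19.4, 23.2, 21.4 and 11.4 FPKM (119, 144, 130 and 69 reads). AdNTF3-Tg was the lowest library, and the other libraries lay between 19.4 and 23.2 FPKM. Its log2 fold change in AdNTF3-Tg was −0.76 (counting interval −1.26 to −0.37) against WT_1 and −0.90 (−1.35 to −0.47) against WT_2.

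*Ifit3*, which encodes a protein that helps IFIT1 bind viral RNA, had 19.1, 24.9, 24.2 and 12.9 FPKM (323, 430, 414 and 220 reads). AdNTF3-Tg was again the lowest, with a log2 fold change of −0.56 (−0.83 to −0.33) against WT_1 and −0.90 (−1.15 to −0.67) against WT_2. WT_1 was itself 0.34 below WT_2 on the log2 scale (WT_2 against WT_1, interval 0.11 to 0.54). The counts of *Ifit3* are fractional, and with those of its near copy *Ifit3b* they sum to whole reads in every library (within 0.011), so the files divided reads between them. The summed reads of the pair were 432, 574, 534 and 301, and their log2 ratio per library total in AdNTF3-Tg was −0.54 against WT_1 and −0.82 against WT_2. *Irf7*, the transcription factor that amplifies type I interferon production, had 5.96, 7.33, 7.20 and 4.10 FPKM (93, 117, 113 and 64 reads). Its log2 fold change in AdNTF3-Tg was −0.53 (−1.04 to −0.09) against WT_1, close to the cutoff, and −0.80 (−1.28 to −0.36) against WT_2.

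*Dhx58* encodes LGP2, a regulator of the RNA sensors RIG-I and MDA5. It had 2.33, 2.37, 2.15 and 1.39 FPKM (48, 50, 45 and 29 reads), so that the other libraries were close together and AdNTF3-Tg was below them. Its log2 fold change was −0.71 (−1.47 to −0.06) against WT_1 and −0.59 (−1.35 to 0.08) against WT_2, the latter within counting error. On NCBIM37, *Isg15* (Entrez 100038882) lies at chr4:155573533-155574927, *Ifit3* (15959) at chr19:34658021-34663221, *Irf7* (54123) at chr7:148448605-148452380 and *Dhx58* (80861) at chr11:100556018-100565585.

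By counting intervals alone, with no cutoff on size, AdNTF3-Tg was lower than both WT libraries in 6 members (15%), against 5.31% of all genes. These were *Isg15*, *Ifit3* and *Irf7*, together with *Ifi27*, *Bst2* and *Ddx58*. The log2 fold change of *Ifi27* was −0.21 against WT_1 and −0.24 against WT_2, a small difference that its 1785 to 2138 reads resolved. *Bst2*, which encodes tetherin, a surface protein that holds budding virus on the cell, had 38.6, 45.6, 46.3 and 32.6 FPKM, and its log2 fold change was −0.24 (−0.54 to −0.02) against WT_1 and −0.50 (−0.76 to −0.26) against WT_2. *Ddx58*, which encodes the RNA sensor RIG-I, had 4.12, 4.85, 4.63 and 3.09 FPKM, and the corresponding log2 differences were −0.40 (−0.76 to −0.09) and −0.57 (−0.91 to −0.26).

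**Figure D2:**
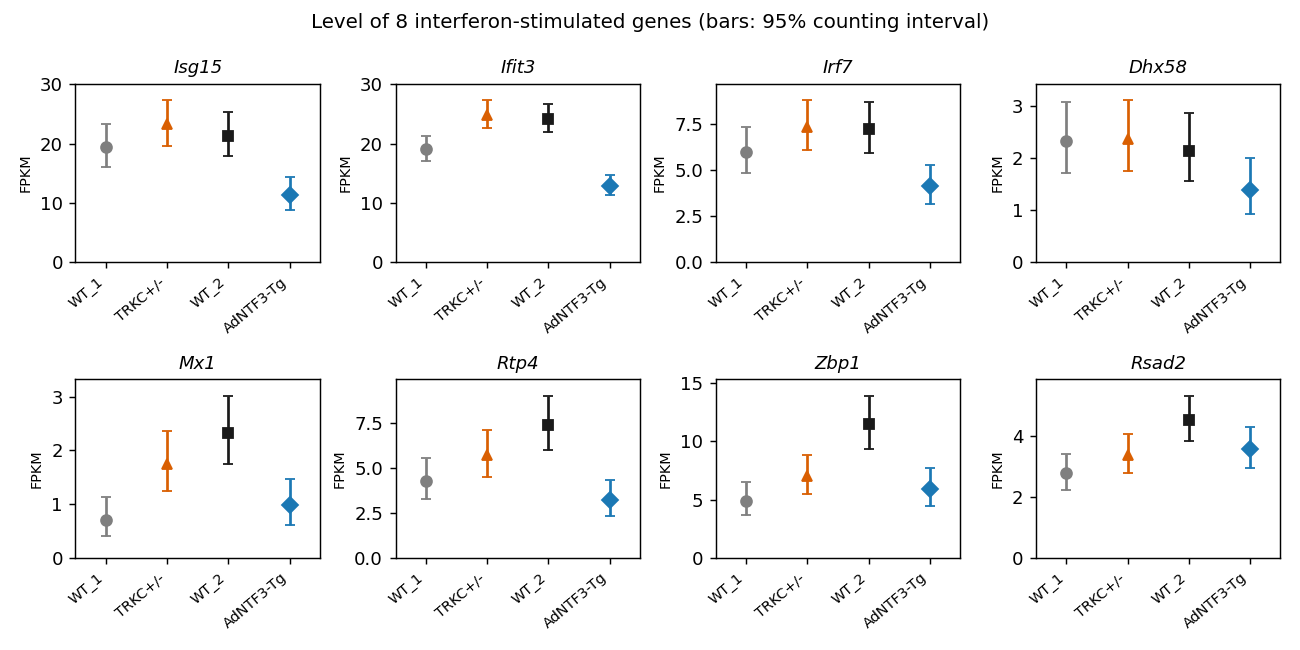
Level in FPKM (y axis, from 0) of 8 members in each library, with the 95% counting interval of its reads as bars. In the upper row AdNTF3-Tg is the lowest library for *Isg15*, *Ifit3*, *Irf7* and *Dhx58*. In the lower row WT_2 is the highest library for *Mx1*, *Rtp4*, *Zbp1* and *Rsad2*, with WT_1 lowest for *Mx1*, *Zbp1* and *Rsad2*.

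The count depended on which WT library served as the control. Against WT_1 alone AdNTF3-Tg was lower in 5 members (the 4 above and *Xaf1*), against 8.24% of all genes, and higher in 0, against 5.62%. Against WT_2 alone it was lower in 14 members (35%), against 7.10% of all genes, and higher in 0, against 6.21%. The 14 were 11 of 32 type I genes (*Mx1*, *Mx2*, *Isg15*, *Ifit3*, *Irf7*, *Usp18*, *Bst2*, *Ddx58*, *Dhx58*, *Rtp4* and *Zbp1*) and 3 of 8 interferon-gamma genes (*Gbp2*, *Igtp* and *Iigp1*). The median log2 fold change of all members in AdNTF3-Tg was −0.10 against WT_1 and −0.31 against WT_2, where the median of all genes was −0.00 and 0. Against the mean of the WT libraries it was −0.22, and 32 of 40 members were below 0 (50.5% of all genes). Since the WT values enter both comparisons, the comparisons are not independent.

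In the library labelled TRKC+/- no member was higher than both WT libraries, against 1.78% of all genes, and none was lower than both, against 2.49%. By counting intervals alone 1 member was higher than both, against 2.34% of all genes. This was *Gbp7*, an interferon-induced guanylate-binding GTPase, which had 2.90, 3.71, 2.94 and 3.17 FPKM. Its log2 fold change was 0.34 (0.03 to 0.68) against WT_1 and 0.33 (0.02 to 0.67) against WT_2, and in the WT libraries a fraction of its reads was divided with *Gbp3*. *Usp18*, which encodes the protease that removes ISG15 and dampens signalling at IFNAR2, came near the rule, with 3.13, 5.16, 3.76 and 2.52 FPKM (47, 79, 57 and 38 reads). It was highest in the library labelled TRKC+/- and lowest in AdNTF3-Tg, and its log2 fold change in the former was 0.70 (0.17 to 1.26) against WT_1 and 0.45 (−0.05 to 0.98) against WT_2.

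Here too the control decided the count. Against WT_1 alone the library labelled TRKC+/- was higher in 6 members (*Mx1*, *Mx2*, *Ifi44*, *Usp18*, *Zbp1* and *Sp100*), all of the type I class, against 4.63% of all genes, and lower in 0, against 6.06%. Against WT_2 alone it was higher in 1 (*Oas2*), against 6.74%, and lower in 2 (*Iigp1* and *Zbp1*), against 5.92%. *Zbp1* thus stood in opposite directions against the WT libraries, at 0.50 against WT_1 and −0.70 against WT_2. The intervals of its reads were −0.06 to 1.03 and −0.93 to −0.03. The transcript length used for *Zbp1* and *Iigp1* differed between libraries, so these calls rest in part on the length. The median log2 fold change of all members in the library labelled TRKC+/- was 0.22 against WT_1 and −0.00 against WT_2, where the median of all genes was 0 in both.

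The WT libraries share a genotype label, and their difference is the only measure here of the spread between libraries of 1 genotype. They are controls of different mutant lines, so it also holds any difference between those controls. These parts cannot be told apart. WT_2 was higher than WT_1 in 7 members (17.5%), against 5.67% of all genes, and lower in 0, against 7.71%. By the counting interval it was higher in 9 (22.5%), against 9.07%, and lower in 1 (*Xaf1*), against 11.4%. The median log2 fold change of WT_2 against WT_1 was 0.18, and 32 of 40 members were above 0 (47.5% of all genes). The largest difference was that of *Mx1*, followed by *Zbp1* at 1.20 (interval of its reads 0.46 to 1.47), *Rtp4* at 0.77 (0.28 to 1.26), *Iigp1* at 0.70 (0.27 to 1.11) and *Rsad2* at 0.69 (0.31 to 1.09). *Oas1a* and *Oas3* each differed by 0.51.

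*Mx1* (Entrez 17857, chr16:97668642-97684514 on NCBIM37) encodes a dynamin-like GTPase that blocks influenza and related viruses in strains with an intact allele. C57BL/6 mice carry a defective one, so only the transcript is described here. The gene was singled out by the study on these same samples, so its direction there is not independent evidence. It had 0.70 FPKM in WT_1 (16 reads), 1.74 in the library labelled TRKC+/- (41 reads), 2.32 in WT_2 (55 reads) and 0.98 in AdNTF3-Tg (23 reads). The WT libraries were the lowest and the highest of the 4, so that both mutant libraries fell between them. The log2 fold change of WT_2 against WT_1 was 1.60 (0.93 to 2.65). That of the library labelled TRKC+/- was 1.20 (0.46 to 2.25) against WT_1 and −0.40 (−1.05 to 0.18) against WT_2, and that of AdNTF3-Tg was 0.43 (−0.48 to 1.52) against WT_1 and −1.16 (−2.02 to −0.52) against WT_2. The sign for each mutant library therefore changed with the WT library chosen as control. *Mx2*, its neighbour on chromosome 16, had 14 to 29 reads per library and no interval that excluded 0.

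An order of libraries that an earlier account of these data gave for the chemokine gene *Cxcl10* was counted among the members, so it was chosen with results known and is a description. In 23 of 40 members (57.5%) the library labelled TRKC+/- and WT_2 were both above WT_1 and AdNTF3-Tg, against 13.2% of all genes. They were 19 of 32 type I genes and 4 of 8 interferon-gamma genes (*Gbp2*, *Gbp3*, *Igtp* and *Iigp1*). AdNTF3-Tg was the lowest of the 4 libraries in 21 members (52.5%), against 27.3% of all genes, and the library labelled TRKC+/- was the highest in 19 (47.5%), against 23.0%. The order puts a WT library on each side, and members of a pathway are not independent of each other, so these shares describe the 4 libraries.

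The type I and interferon-gamma classes were compared by their medians. The median log2 fold change of AdNTF3-Tg against the WT mean was −0.21 over the type I class and −0.26 over the interferon-gamma class. Against WT_1 alone the medians were −0.12 and −0.01, and against WT_2 alone −0.29 and −0.40, so that the order of the classes changed with the control. That of the library labelled TRKC+/- was 0.10 and 0.09 against the WT mean, 0.23 and 0.18 against WT_1 and 0.02 and −0.09 against WT_2, and that of WT_2 against WT_1 was 0.18 and 0.20. The geometric mean level of the type I class was 5.44, 6.57, 6.53 and 4.99 FPKM, and that of the interferon-gamma class 8.61, 9.90, 10.2 and 8.32 FPKM. Both classes were lowest in AdNTF3-Tg, with WT_1 next. The type I class, which has more genes, had wider extremes. AdNTF3-Tg was lower than both WT libraries in 4 of 32 type I genes (12.5%), against 3.58% of all genes. It was lower in 0 of 8 interferon-gamma genes, too few genes to set the classes apart. The difference between the classes was not tested. Among members with a promoter window, the median log2 fold change of AdNTF3-Tg against the WT mean was −0.19 in the 17 with an ISRE core and −0.06 in the 13 without, and that of WT_2 against WT_1 was 0.22 and 0.09. That of the library labelled TRKC+/- against the WT mean was 0.09 with the core and 0.15 without. For the GAS, the medians of AdNTF3-Tg were −0.14 in the 8 members with it and −0.15 in the 22 without.

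**Figure D3:**
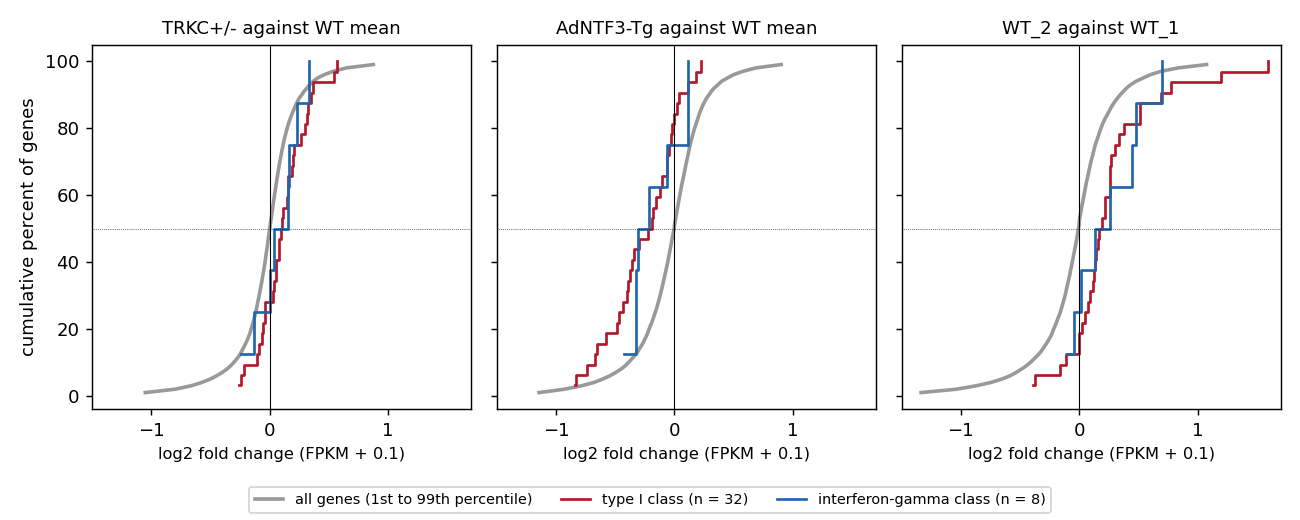
Cumulative percent of genes (y axis) by log2 fold change of FPKM + 0.1 (x axis) for each mutant library against the WT mean and for WT_2 against WT_1. The grey line is all genes, and the steps are the type I (n = 32) and interferon-gamma (n = 8) classes. Both classes lie left of all genes for AdNTF3-Tg (medians −0.21 and −0.26) and right of them for WT_2 against WT_1 (0.18 and 0.20).

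The receptors and kinases of the response were listed in all libraries. The receptor genes *Ifnar1* (10.9, 10.2, 9.40 and 10.3 FPKM), *Ifnar2* (16.6, 15.1, 17.8 and 14.2), *Ifngr1* (20.7, 20.6, 21.3 and 17.5) and *Ifngr2* (33.2, 35.8, 32.1 and 29.1) did not pass the rule in either mutant library. Nor did the kinase genes *Jak1* (29.3, 27.3, 30.1 and 30.2 FPKM), *Tyk2* (5.43, 5.44, 5.22 and 4.44) and *Jak2* (5.89, 5.23, 6.08 and 7.59). By counting intervals, AdNTF3-Tg was lower than both WT libraries for *Ifnar2*, with log2 fold changes of −0.22 (−0.62 to −0.04) against WT_1 and −0.32 (−0.65 to −0.07) against WT_2. The same held for *Ifngr1*, at −0.24 (−0.48 to −0.04) and −0.28 (−0.50 to −0.07). For *Jak2* AdNTF3-Tg was the highest library, by 0.36 (0.12 to 0.60) against WT_1 and 0.32 (0.09 to 0.56) against WT_2 on the log2 scale. All these differences stayed under the cutoff of 0.5.

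Among the transcription factors that are members, *Irf9*, the DNA-binding part of the ISRE complex, had 11.7, 12.6, 12.8 and 9.63 FPKM, with AdNTF3-Tg lowest. Its log2 fold change there was −0.27 (interval of its reads −0.54 to 0.01) against WT_1 and −0.40 (−0.69 to −0.16) against WT_2. Its partner *Stat2* had 17.8, 18.9, 17.7 and 16.5 FPKM, and neither mutant library differed from a WT library beyond counting error. *Irf1*, the early factor of the interferon-gamma response, had 14.2, 16.5, 13.8 and 15.2 FPKM and was lowest in WT_2. Of these factors *Irf7* alone passed the rule, in AdNTF3-Tg. *Irf8*, a related factor of myeloid cells that is no member, had 2.24, 2.55, 2.29 and 1.07 FPKM (54, 63, 56 and 26 reads), and its log2 fold change in AdNTF3-Tg was −1.0 (−1.81 to −0.38) against WT_1 and −1.03 (−1.83 to −0.40) against WT_2.

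**Figure D4:**
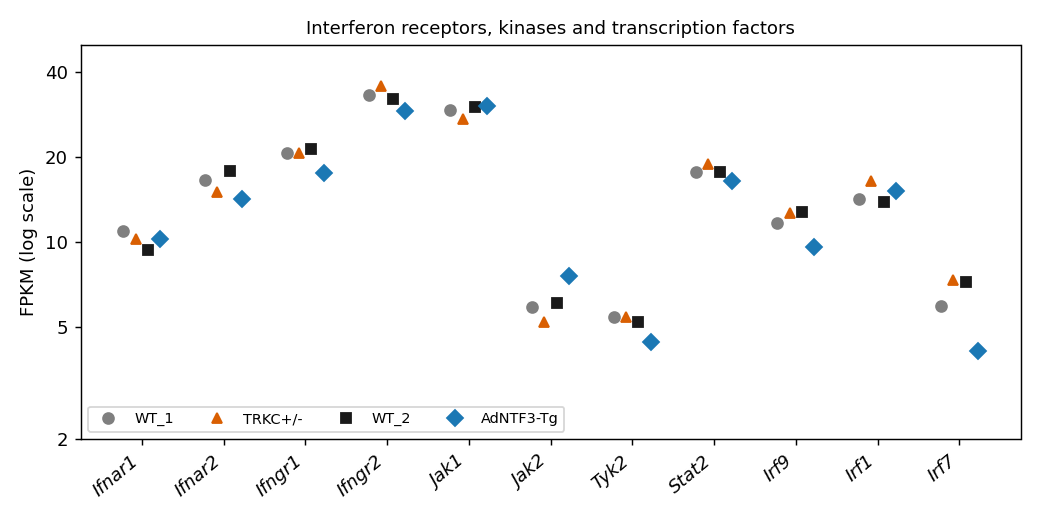
Level in FPKM (y axis, log scale) of receptor, kinase and transcription factor genes in the 4 libraries, 1 point per library. The libraries lie close together for the receptors and for *Stat2*, and AdNTF3-Tg lies below the others for *Irf7* (4.10 FPKM) and *Irf9* (9.63 FPKM).

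Among the members that sense foreign nucleic acid, *Ddx58* and *Dhx58* were lowest in AdNTF3-Tg, as given above. *Ifih1*, which encodes the long-RNA sensor MDA5, had 2.74, 2.79, 3.21 and 2.60 FPKM, and no pair of a mutant and a WT library differed beyond counting error. *Eif2ak2*, the kinase PKR that stops translation when it binds double-stranded RNA, had 6.35, 5.60, 7.08 and 5.92 FPKM and was lowest in the library labelled TRKC+/-. Its log2 fold change there was −0.18 (−0.46 to 0.09) against WT_1 and −0.33 (−0.60 to −0.07) against WT_2. *Zbp1*, the Z-form nucleic acid sensor that triggers necroptosis, had 4.92, 7.0, 11.4 and 5.89 FPKM (51, 73, 101 and 55 reads), with WT_2 highest. The transcript length used for *Zbp1*, *Irf9* and *Iigp1* in the deposited tables differed between libraries, so their ratios of FPKM and of reads are not the same.

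The IFIT genes lie side by side on chromosome 19, and their products bind foreign RNA. *Ifit1* had 12.8, 16.1, 14.1 and 13.8 FPKM and *Ifit2* 5.43, 5.37, 5.73 and 6.55 FPKM. Neither was lower in AdNTF3-Tg than in both WT libraries, in contrast to the values of *Ifit3*, and *Ifit2* was highest there, by 0.27 (−0.03 to 0.55) against WT_1 and 0.19 (−0.09 to 0.48) against WT_2 on the log2 scale. Neighbouring members of this family thus had different orders of libraries, and whether their folds differ was not tested.

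Many OAS genes, though not all of the family, encode enzymes that make the signal for RNase L, and the OAS members lie on chromosome 5. *Oas1a* had 4.78, 5.95, 6.87 and 5.21 FPKM, *Oasl1* 1.11, 1.47, 1.21 and 0.88, and *Oasl2* 27.0, 30.5, 27.9 and 29.8. *Oasl2* was the most abundant of the family and nearly level, while *Oas1a* was highest in WT_2, by 0.51 (0.08 to 0.96) over WT_1. *Oas2* and *Oas3* had 22 to 40 reads per library, and no OAS member passed the rule in a mutant library. The counts of *Oas1a* sum to whole reads in every library with those of *Oas1g*, at 103, 121, 131 and 95, so neither value stands apart from the other. Summed, the log2 ratio of WT_2 against WT_1 was 0.32. *Oas3* also had fractional counts.

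Among other antiviral effectors of the type I class, *Rsad2*, which encodes viperin, had 2.77, 3.37, 4.52 and 3.57 FPKM (90, 112, 149 and 117 reads), lowest in WT_1 and highest in WT_2. *Rtp4*, a chaperone of cell-surface receptors that is induced by interferon, had 4.31, 5.71, 7.43 and 3.24 FPKM (57, 77, 99 and 43 reads), and its log2 fold change in AdNTF3-Tg was −1.17 (−1.75 to −0.67) against WT_2 and −0.40 (−1.04 to 0.17) against WT_1. *Cmpk2*, the neighbour of *Rsad2* on chromosome 12 and a mitochondrial nucleotide kinase, had 8.73, 9.99, 10.2 and 9.01 FPKM, a smaller spread in the same order of the lowest and highest library. *Xaf1*, a factor that promotes cell death, had 9.07, 8.66, 6.99 and 6.05 FPKM, and was 1 of 8 members below 0 for WT_2 against WT_1, at −0.37 (−0.70 to −0.08). In AdNTF3-Tg its log2 fold change was −0.58 (−0.93 to −0.28) against WT_1 and −0.21 (−0.55 to 0.13) against WT_2.

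Of the remaining type I members, *Ifi35* had 38.6, 37.5, 38.5 and 35.3 FPKM and *Parp14*, an ADP-ribosyltransferase, 5.70, 6.26, 6.53 and 6.22. *Trim30a*, which restrains inflammatory signalling, had 1.63, 1.92, 1.45 and 1.47 FPKM, and *Sp100*, a component of nuclear bodies, 1.31, 1.93, 1.73 and 1.74. None of these had a counting interval that excluded 0 between a mutant and a WT library, although *Sp100*, on 24 to 36 reads, was 0.53 higher in the library labelled TRKC+/- than in WT_1 on the log2 scale.

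The interferon-gamma class is made up largely of GTPases that attack the vacuoles of intracellular pathogens. The guanylate-binding genes lie together on chromosome 3. *Gbp2* had 8.04, 8.84, 9.63 and 6.56 FPKM and *Gbp3* 6.52, 8.62, 8.94 and 6.66. The log2 fold change of *Gbp2* in AdNTF3-Tg was −0.55 (−0.87 to −0.24) against WT_2 and −0.29 (−0.64 to 0.03) against WT_1, whereas that of *Gbp3* against WT_1 was 0.03 (−0.32 to 0.35).

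Among the immunity-related GTPases, *Igtp* had 10.9, 13.3, 15.2 and 10.5 FPKM, *Irgm1* 10.4, 9.89, 11.4 and 8.69, and *Iigp1* 2.99, 3.34, 4.93 and 3.14. WT_2 was the highest library for all of them, and WT_1 and AdNTF3-Tg were close in *Igtp* and *Iigp1*. *Psmb10* had 41.5, 44.8, 38.5 and 38.3 FPKM, with WT_2 and AdNTF3-Tg level and the library labelled TRKC+/- highest. 

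Pathway genes outside the members were read from lists. Of 31 genes of interferon signalling, 24 were listed, and the 7 ligand genes (*Ifnb1*, *Ifna1*, *Ifna2*, *Ifna4*, *Ifng*, *Ifnk* and *Ifnl3*) were listed in none of the 4 libraries. In AdNTF3-Tg 2 of the 24 were lower than both WT libraries, *Irf8* and *Ikbke* (a kinase upstream of IRF3, 0.76 to 1.24 FPKM, named after its values were seen), and 0 were higher, where 3.58% and 2.12% of all genes were. In the library labelled TRKC+/- 1 was lower than both, where 2.49% of all genes were. This was *Ptpn6*, the phosphatase SHP-1, with 3.09, 2.09, 3.68 and 3.28 FPKM. WT_2 was higher than WT_1 in 3 of the 24 and lower in 0, where 5.67% and 7.71% of all genes were. These were *Socs3*, *Tmem173* and *Mb21d1* (a sensor of DNA at 0.15 to 0.49 FPKM, named after its values were seen). *Tmem173*, which encodes the DNA-sensing adaptor STING, had 2.25, 2.50, 3.64 and 2.64 FPKM. The feedback inhibitor *Socs3* had 4.70, 5.65, 7.72 and 4.07 FPKM and was highest in WT_2, as many members were. The median log2 fold change of AdNTF3-Tg against the WT mean was −0.17 over this list.

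Of 56 further interferon-responsive genes, 53 were listed in all libraries, and 7 of them were lower in AdNTF3-Tg than in both WT libraries while 0 were higher (3.58% and 2.12% of all genes). Of these, the genes that averaged 1 FPKM or more were *Slfn2* (4.79, 4.15, 4.75 and 2.60 FPKM), *Oas1b* (2.37, 2.26, 2.22 and 1.40), *Oas1g* (1.58, 1.40, 1.19 and 0.67, with reads divided with *Oas1a*) and *Ifitm1* (1.66, 1.23, 2.04 and 0.75, on 4 to 11 reads). The other 3, *Tgtp1*, *Isg20* and *Phf11b*, are named after their values were seen and had 3 or fewer reads in AdNTF3-Tg. In the library labelled TRKC+/- 0 of the 53 passed the rule in either direction. WT_2 was higher than WT_1 in 9 and lower in 1, *Phf11b* (5.67% and 7.71% of all genes). The median log2 fold change of AdNTF3-Tg against the WT mean was −0.27.

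*Cxcl10*, a chemokine gene of this list, was singled out by the study on these same samples, as *Mx1* was. It had 1.08, 5.09, 5.05 and 1.51 FPKM (10, 48, 47 and 14 reads). The libraries fell into a low pair, WT_1 and AdNTF3-Tg, and a high pair, the library labelled TRKC+/- and WT_2, with a log2 fold change of 2.13 (1.20 to 3.35) for WT_2 against WT_1. In the library labelled TRKC+/- it was 2.14 (1.22 to 3.37) against WT_1 and 0.01 (−0.59 to 0.63) against WT_2, and in AdNTF3-Tg 0.45 (−0.81 to 1.79) and −1.68 (−2.72 to −0.85). *Irgm2*, with 6.00, 8.16, 8.71 and 5.55 FPKM, and *Ifi47*, with 3.34, 4.14, 5.53 and 2.92, had the same pairs of higher and lower libraries. *Irgm2* is not independent of the member *Igtp*, since their fractional counts sum to whole reads in every library (372, 491, 536 and 354). *Trim21* (4.82, 5.79, 7.13 and 6.32 FPKM) and *Slfn8* (0.93, 1.15, 1.47 and 0.86) were also higher in WT_2 than in WT_1 by the cutoff.

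Markers of other cell types moved with some of these differences. All 10 macrophage markers were listed in all libraries, and their summed level was 156, 141, 131 and 116 FPKM, lowest in AdNTF3-Tg, as was the summed level of the members. The complement genes *C1qa* (52.4, 45.0, 42.1 and 34.0 FPKM) and *C1qb* (50.8, 47.1, 41.7 and 36.3) made up most of it. Of the 10 markers, 5 were lowest in AdNTF3-Tg, against 27.3% of all genes, and none passed the fold rule there. *Csf1r*, the receptor that defines macrophages, had 13.0, 11.9, 10.7 and 11.9 FPKM. The sum was, however, higher in WT_1 than in WT_2, the reverse of the members. Endothelial markers (6 of 6) summed to 33.1, 34.0, 30.2 and 28.9 FPKM and glial markers (7 of 7) to 778, 745, 591 and 707. Skeletal muscle genes were highest in WT_1, adipocyte markers summed to 366, 200, 333 and 269 FPKM, and blood genes to 113, 102, 47.0 and 64.1. The part of these cells in the results was not tested.

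Lymphocyte and neutrophil markers were at or near 0. Of 10 markers of T and NK cells, *Cd3d*, *Trac* and *Ncr1* were listed in no library, and the others summed to 0.35 to 0.88 FPKM. B cell markers (3 of 4 listed) summed to 0.54 to 0.99 FPKM and neutrophil markers (3 of 5 listed, without *Ly6g* and *Mpo*) to 0 to 1.75 FPKM. The list for plasmacytoid dendritic cells summed to 45.0, 53.3, 53.7 and 37.1 FPKM, but *Bst2* and *Irf7*, members themselves, made up nearly all of it, and its other genes, *Siglech* and *Ccr9*, had at most 8 reads in a library.

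A test across all genes was possible only by taking the spread between the WT libraries for that of each mutant library. With edgeR's quasi-likelihood test and Benjamini-Hochberg adjustment, 0 of 40 members and 0% of all genes had an adjusted p below 0.05 in AdNTF3-Tg, and likewise 0 of 40 and 0% in the library labelled TRKC+/-. At an unadjusted p below 0.05, 3 members (*Isg15*, *Ifit3* and *Ifi27*) were called in AdNTF3-Tg, against 4.58% of all genes, and 0 in the library labelled TRKC+/-, against 1.72%. In AdNTF3-Tg the edgeR adjusted p was 0.83 for each of *Isg15*, *Ifit3*, *Irf7* and *Dhx58*, above the threshold of 0.05. The difference between the WT libraries was not tested.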

How the data were processed

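Poly(A) RNA from pooled T1–T4 sympathetic ganglia was sequenced as 4 libraries. According to the authors' methods, SOAPnuke filtered the single-end reads and HISAT2 aligned them on mm9, whereas the submitters' processing notes name RSEM and mm10, so the build is not settled. Strand of counting is not given in the sources used here. The authors deposited, for each gene, an expected count (estimated reads, not normalized, of which 92.6% to 93.7% were whole) and an FPKM value. The deposited tables omit genes without reads, and hold no coordinates.

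Fold changes are log2 ratios of FPKM after adding 0.1 (this understates changes of low genes), over genes listed in all 4 libraries. Expected counts were rounded for the counting intervals, for TMM and for edgeR (4.0.16, R 4.3.3). Other steps used Python 3.11.15 with pandas 2.3.3 and scipy 1.17.1, and the methods were tested on simulated data. The edgeR test has 1 residual degree of freedom, from the WT libraries. A count of 3 reads is worth 0.337 to 0.346 CPM. Symbols came from RefSeq (17619 identifiers, 99.7%), gene positions from GENCODE on NCBIM37 and promoters from RefSeq (GRCm38.p6).

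The members, lists and order of libraries were chosen with earlier results of these data known. Values per library are given for members averaging 1 FPKM or more and for *Mx1*. Of the lists, the receptor and kinase genes are named, with those past the cutoff that average 1 FPKM or more. The chi-square over libraries and the counts of highest and lowest libraries were chosen after seeing the data. Alternatives were other pseudocounts, a filter, missing genes as 0, TMM, median centring, other cutoffs, edgeR and each WT library alone. A further gene named by this rule is not reported here. Members were also paired with any gene whose fractional counts completed theirs to whole reads in all libraries, a step added after seeing the data.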

Additional observations from a re-analysis of the deposited data

How the results depend on the processing

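No paired analysis was possible because the sample labels do not say which WT library belongs to which mutant, and each group but WT has 1 library. The 4 members lower in AdNTF3-Tg than in both WT libraries became 2 with a pseudocount of 1 FPKM, 0 with a cutoff of 1 and 0 with edgeR's adjusted p, and between 5 and 14 when 1 WT library was left out (5 without WT_2 and 14 without WT_1). The count of members higher in the library labelled TRKC+/-, 0 as reported, was 1 by counting intervals and between 1 and 6 with 1 WT library left out (1 without WT_1, 6 without WT_2), and that of lower members was between 0 and 2 (2 without WT_1). For WT_2 against WT_1, the 7 higher members became 2 with a cutoff of 1, and the 0 lower ones became 1 by the counting interval. The class medians moved with the control. For the library labelled TRKC+/- the type I median was 0.017 without WT_1 and 0.23 without WT_2, and the interferon-gamma median −0.087 and 0.18. For AdNTF3-Tg the interferon-gamma median was −0.40 without WT_1 and −0.012 without WT_2, and the type I median −0.29 and −0.12. The causes were not tested, beyond the choice of control or cutoff itself. The other 93 values of these comparisons moved by at most 1.5 times (counts, such as 4 to 6 lower members of AdNTF3-Tg by counting intervals) or less than the spread between the WT libraries (medians). Of the fold changes of single members, 848 stayed within that spread and 20 did not, with no change of sign among members past the cutoff against both WT libraries. Against WT_1 and WT_2 alone, 16 members had opposite signs in the library labelled TRKC+/- and 13 in AdNTF3-Tg, *Mx1* in both. The share of all genes was not counted, so these counts show nothing particular to the members. No scaling moved the median of all genes by over 0.1 on the log2 scale. Depth limited the members with few reads, since a gene with 6 to 40 reads per library has an interval wider than most differences seen.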
